A study of Mus musculus with 9 samples.

Results

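Transcripts of 10 CC chemokine genes were followed across 9 libraries of interferon-gamma-treated mouse macrophages. The genes were taken by symbol from a table of 29763 named genes: Ccl2, Ccl3, Ccl4, Ccl5, Ccl6, Ccl7, Ccl8, Ccl9, Ccl12 and Ccl22, and all 10 were found in it. The cells were bone marrow-derived macrophages, grown over 7 days with 30% L929 cell supernatant, a source of macrophage colony-stimulating factor. They came from Ndufa4l3-miR147 knockout mice (also labelled Nmes1-deficient), Ndufa4 knockout mice and wild-type mice, with 3 libraries each. The cells of all 9 libraries had 12 h of interferon-gamma (40 ng/ml), so the values compare genotypes within treated cells and do not show the response to interferon-gamma. The labels give both knockouts as deficient on both alleles and call the 3 replicates of a genotype technical. The p-values therefore measure only the spread between libraries. The sources used here do not give how the alleles were made, how many mice were used or their age. The series concerns a remodelling of mitochondrial complex IV, the last enzyme of the respiratory chain, in macrophages and how it relates to signalling by interferon.

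CC chemokines are small secreted proteins with a pair of adjacent cysteines near the start of the mature chain. They bind G protein-coupled receptors of the CCR family and draw receptor-bearing leukocytes along a gradient. Macrophages are a main source of them: Ccl2, Ccl7 and, in the mouse, Ccl12 act on Ccr2 and recruit monocytes, while Ccl3, Ccl4 and Ccl5 recruit monocytes and effector T cells.

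Abundance is given in TPM (a transcript's share of all transcripts, scaled to a fixed total), which is corrected for transcript length so that genes can be compared. Each log2 fold change is a difference of means on the log2(TPM + 1) scale, given ± SE with n = 3 libraries per genotype. Changes of scarce transcripts come out too small on this scale. A gene was called at a limma adjusted p under 0.05 over the 11133 genes kept, with Benjamini-Hochberg adjustment and two-sided tests. The read depth cannot be recovered from TPM and is unknown, so values carry no interval for counting error. In bulk RNA, fewer cells that express a gene and less RNA per cell cannot be told apart.

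The libraries held 913474 to 921678 TPM on named genes. The target of the first knockout, listed as AA467197, stood at 2.21 to 4.50 TPM in Ndufa4l3-miR147 knockout cells, at 472 to 527 TPM in the Ndufa4 knockout and at 355 to 365 TPM in wild type. Ndufa4 was listed at 0 in 7 libraries, among them all 3 of the Ndufa4 knockout, and at 0.621 and 0.303 TPM in 1 Ndufa4l3-miR147 knockout library and 1 wild-type library, so it checks nothing about the Ndufa4 labels. One library stood apart: in Ndufa4 knockout replicate 3 long transcripts were low and short ones high, with a Spearman rho of -0.512 between a gene's deviation and its transcript length over 10673 genes, against 0.0687 to 0.249 in the other 8 libraries. The CC chemokine transcripts are mostly short, at 511 to 813 bases for 7 of the 10, so the calls of members in the Ndufa4 knockout against wild type are also given without that library. Results on genes of the other lists include that library and are not given without it.

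Of the 10 genes, 9 lie on chromosome 11 in a pair of clusters (GENCODE M21, GRCm38; all protein coding). The first, at chr11:82035571-82116799, holds Ccl2, Ccl7, Ccl12 and Ccl8 on the plus strand, each with 3 exons. The second, at chr11:83525778-83664683, holds Ccl5, Ccl9, Ccl6 and Ccl3 on the minus strand and Ccl4 on the plus strand. Ccl3 and Ccl4 are 13.2 kb apart and are read in opposite directions, away from each other. Ccl22 lies on chromosome 8, at chr8:94745590-94751699. Their sequences are related, but no stretch of 31 bases of a member's longest coding transcript was found in a transcript of another member. Of such stretches, 3.8% of those of Ccl9 and 1.28% of those of Ccl6 also occur in transcripts of other genes, and 0 of those of the other 8 members. Reads of this length can therefore be assigned within the family, under this annotation.

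The knocked-out locus carries a microRNA as well as the Ndufa4l3 protein, and the mature strand held by RefSeq (GRCm38.p6, chr2:122640814-122640837, plus strand) is shown because a microRNA pairs with target transcripts through its seed, given here in capitals (bases 2 to 8).
mmu-miR-147-5p: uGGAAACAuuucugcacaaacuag
The complement of the seed, TGTTTCC, was searched in the longest coding transcript of each member; the other strand, miR-147-3p, was not searched. It occurred in 1 of 10, Ccl9, once in the 3′ UTR. The match lies within chr11:83574022-83574044 on the minus strand, the stretch of 23 bases printed below with the match in capitals. Among 4989 kept genes whose longest coding transcript measured 511 to 3006 bases, the span of the members, 17.2% held it. A match is a run of letters and no shown target site.
Ccl9 match: atcttttgTGTTTCCatatgaat

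Promoters were found in RefSeq (GRCm38.p6) for 6 of the 10 members, Ccl3, Ccl6, Ccl8, Ccl9, Ccl12 and Ccl22, and not for Ccl2, Ccl4, Ccl5 and Ccl7. The 250 bases before the start are printed for 4 of them: Ccl9 and Ccl3, which differed between genotypes, and Ccl12 and Ccl8, which were called in no comparison. Capitals mark matches to a TATA box (TATAAA, plus strand) and, on both strands, to AP-1 (TGANTCA), NF-kB, GAS (TTCNNNGAA) and a core of the interferon-stimulated response element (GAAA, 2 free bases and GAAA again). NF-kB was searched as its common 10-base consensus.
Ccl9, chr11:83578637-83578886, minus strand: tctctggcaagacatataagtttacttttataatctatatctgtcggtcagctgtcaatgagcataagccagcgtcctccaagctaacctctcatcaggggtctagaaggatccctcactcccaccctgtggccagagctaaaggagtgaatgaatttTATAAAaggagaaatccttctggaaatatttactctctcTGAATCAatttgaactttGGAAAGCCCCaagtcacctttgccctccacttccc
Ccl3, chr11:83649379-83649628, minus strand: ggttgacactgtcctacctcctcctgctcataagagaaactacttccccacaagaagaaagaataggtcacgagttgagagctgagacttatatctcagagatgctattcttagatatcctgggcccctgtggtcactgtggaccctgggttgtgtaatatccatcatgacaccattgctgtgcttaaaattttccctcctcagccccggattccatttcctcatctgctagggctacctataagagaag
Ccl12, chr11:82101595-82101844, plus strand: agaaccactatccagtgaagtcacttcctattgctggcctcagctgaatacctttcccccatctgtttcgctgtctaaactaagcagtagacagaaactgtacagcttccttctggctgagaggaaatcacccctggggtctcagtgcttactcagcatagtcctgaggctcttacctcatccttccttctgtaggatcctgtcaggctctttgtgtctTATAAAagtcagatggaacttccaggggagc
Ccl8, chr11:82114935-82115184, plus strand: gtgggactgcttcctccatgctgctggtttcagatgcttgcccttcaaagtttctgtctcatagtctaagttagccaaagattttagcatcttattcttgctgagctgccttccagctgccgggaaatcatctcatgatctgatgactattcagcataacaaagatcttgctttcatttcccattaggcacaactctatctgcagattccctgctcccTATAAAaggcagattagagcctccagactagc
Ccl9 held an AP-1 match from base -53 to -47 and an NF-kB match from -35 to -26, counted back from the start, besides a TATA box from -92 to -87, and these do not overlap. A TATA box stood at -31 to -26 in Ccl12 and at -32 to -27 in Ccl8. NF-kB and AP-1 matches were each found in 1 of the 6 windows, TATA boxes in 3, and GAS and response element matches in 0. Of all 32851 promoter windows of this length, 3.9% held the NF-kB motif, 6.7% AP-1, 7.6% the TATA box, 7.0% GAS and 3.0% the response element core.

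Together the 10 transcripts summed to 2080 ± 34.2 TPM in Ndufa4l3-miR147 knockout cells, 1764 ± 174 TPM in the Ndufa4 knockout and 1651 ± 54.1 TPM in wild type (mean ± SD). The sums were 2042 to 2108 TPM in Ndufa4l3-miR147 knockout cells, 1635 to 1962 TPM in the Ndufa4 knockout and 1600 to 1708 TPM in wild type. Those of the Ndufa4l3-miR147 knockout lay above all others, and those of the Ndufa4 knockout and wild type overlapped. Most of the sum came from the Ccr2 ligands Ccl2, Ccl7 and Ccl12, with 79.3% to 80.5% in the Ndufa4l3-miR147 knockout, 78.5% to 80.4% in the Ndufa4 knockout and 78.0% to 79.5% in wild type.

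Ccl2 was the most abundant member in every genotype and Ccl22 the least. In wild type the order of mean TPM ran Ccl2, Ccl12, Ccl7, Ccl8, Ccl3, Ccl4, Ccl5, Ccl9, Ccl6 and Ccl22, with neighbours overlapping between Ccl8 and Ccl3, Ccl4 and Ccl5, and Ccl5 and Ccl9. In the Ndufa4l3-miR147 knockout Ccl7 stood above Ccl12 with no overlap, at 464 ± 6.35 against 352 ± 23.3 TPM (SD). In the Ndufa4 knockout Ccl12 and Ccl7 overlapped, at 388 ± 59.1 and 352 ± 52.5 TPM, as did Ccl9 and Ccl3, Ccl8 and Ccl4, and Ccl4 and Ccl5. In the Ndufa4l3-miR147 knockout Ccl4 came next after the Ccr2 ligands, above Ccl9, Ccl3, Ccl8 and Ccl5, of which each overlapped the next.

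**Figure D1:**
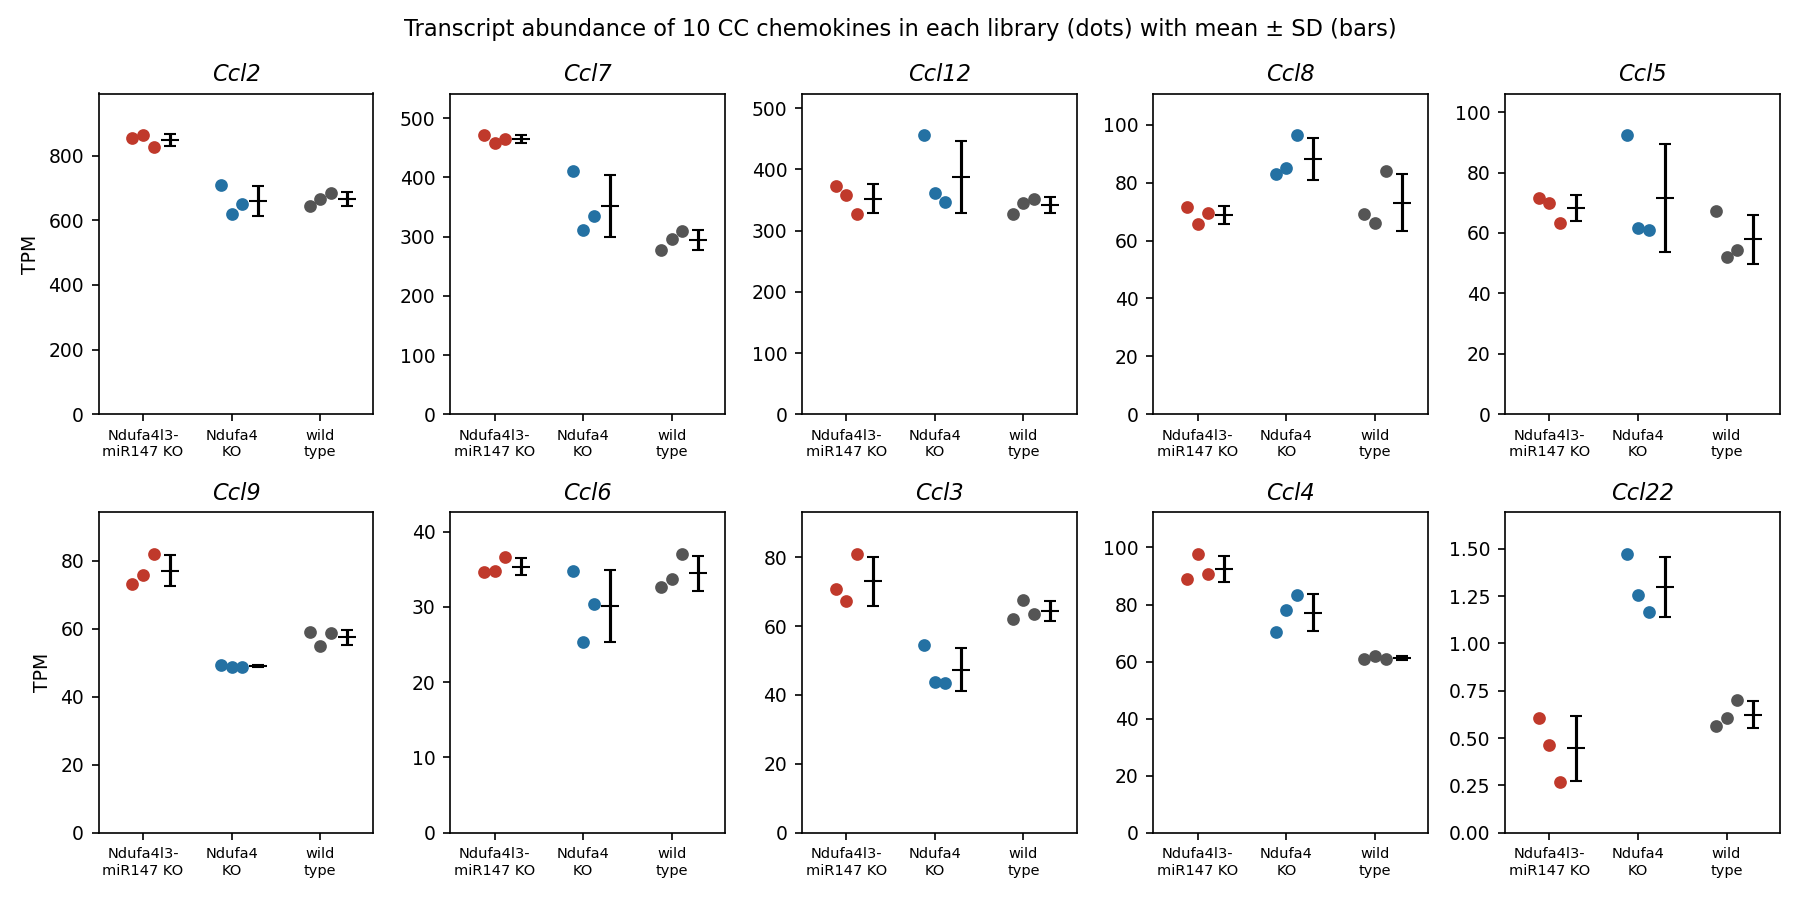
TPM of each CC chemokine (vertical axis, from 0) in the 3 libraries of the Ndufa4l3-miR147 knockout, the Ndufa4 knockout and wild type, as dots, with bars for mean ± SD. The Ndufa4l3-miR147 knockout libraries lie above all others for Ccl2, Ccl7, Ccl9 and Ccl4, and the Ndufa4 knockout libraries lie below all others for Ccl9 and Ccl3.

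The Ndufa4l3-miR147 knockout was first compared with wild type. Ccl2, Ccl7, Ccl4 and Ccl9 rose, by 1.28-fold to 1.58-fold, and no member fell. Across all genes 0.243% were called higher and 0.189% lower in this comparison, or 27 and 21 of 11133 (0.431% in either direction). The same 4 members were those whose libraries did not overlap between the genotypes in the upward direction, against 11.9% of all genes, and 0 members did so downward, against 12% of all genes. The median change of the 10 members was 0.21, against 0.00 over all genes. The members were chosen with earlier results of these data known, so such counts and medians, here and below, are descriptions with no test.

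Ccl2, the main attractant of Ccr2-bearing monocytes, stood at 854, 863 and 828 TPM in Ndufa4l3-miR147 knockout cells libraries and at 643, 666 and 686 TPM in those of wild type. All 3 knockout libraries were above all 3 of wild type, and the difference of 0.35 ± 0.05 passed the test (limma adjusted p = 0.0335). Ccl7, which lies beside Ccl2 and shares the receptor Ccr2, changed more.
Its TPM were 471, 458 and 464 in the Ndufa4l3-miR147 knockout and 278, 295.5 and 310.1 in wild type. The knockout libraries lay close together and all above the wild-type ones, a rise of 0.66 ± 0.09 (limma adjusted p = 0.0222). Ccl12 and Ccl8, the other members of this cluster, were not called. Ccl12 is the mouse Ccr2 ligand also known as monocyte chemoattractant protein 5. It stood at 372, 358 and 327 TPM in Ndufa4l3-miR147 knockout cells and at 328, 345.5 and 352 TPM in wild type, ranges that overlap, with a difference of 0.04 ± 0.10 (95% interval -0.18 to 0.26). Ccl8, a ligand of Ccr8 in the mouse, stood at 71.7, 65.6 and 69.5 TPM in Ndufa4l3-miR147 knockout cells and at 69.2, 66.0 and 84.1 TPM in wild type. These overlap as well, and the interval of the difference ran from -0.29 to 0.14.

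Ccl4, an attractant of monocytes and T cells also called MIP-1 beta, stood at 89.0, 97.8 and 90.6 TPM in Ndufa4l3-miR147 knockout cells and at 60.8, 62.0 and 61.0 TPM in wild type. No library overlapped, and the rise was 0.58 ± 0.07 (limma adjusted p = 0.00904). Its neighbour Ccl3, or MIP-1 alpha, a ligand of Ccr1, did not pass the test. It stood at 70.8, 67.3 and 81.0 TPM in Ndufa4l3-miR147 knockout cells and at 62.1, 67.7 and 63.6 TPM in wild type, a difference of 0.17 ± 0.10 with an interval of -0.05 to 0.40. Ccl9, a Ccr1 ligand found in rodents, stood at 73.2, 75.9 and 82.0 TPM in Ndufa4l3-miR147 knockout cells and at 58.9, 54.9 and 58.7 TPM in wild type. It rose by 0.41 ± 0.06 with no overlap (limma adjusted p = 0.021). Ccl6, the adjacent and related rodent gene, stood at 34.65, 34.8 and 36.6 TPM in Ndufa4l3-miR147 knockout cells and at 32.6, 33.7 and 37.0 TPM in wild type, and differed by 0.04 ± 0.11. Ccl5 (RANTES), an attractant of T cells and monocytes, stood at 71.5, 70.0 and 63.3 TPM in Ndufa4l3-miR147 knockout cells and at 67.1, 52.2 and 54.3 TPM in wild type, with wild-type replicate 1 inside the range of the knockout, and its difference was 0.24 ± 0.16.

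All 4 calls were lost without wild-type replicate 1, 2 or 3 and without Ndufa4l3-miR147 knockout replicate 2 or 3, and only Ccl4 and Ccl9 kept theirs without Ndufa4l3-miR147 knockout replicate 1. The call of Ccl2 was also lost when libraries were scaled by median-of-ratios or the transcript length trend was removed (limma adjusted p of 0.0664 and 0.0802). With no filter on low values Ccl2 and Ccl7 lost theirs (limma adjusted p of 0.0972 and 0.0819). Of the 19 alternatives, 8 kept the call of Ccl2, 10 that of Ccl7, 14 that of Ccl4 and 12 that of Ccl9. The 4 changes kept the same direction in all 19 alternatives, at 0.33 to 0.37 for Ccl2, 0.62 to 0.70 for Ccl7, 0.54 to 0.61 for Ccl4 and 0.37 to 0.45 for Ccl9.

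The Ndufa4 knockout was then compared with wild type. Ccl4 rose and Ccl3 and Ccl9 fell, so that neighbouring genes of the second cluster went opposite ways, and Ccl2 showed no difference past the test. Across all genes 2.83% were called higher and 5.76% lower, or 315 and 641 of 11133 (8.59% in either direction); with median-of-ratios scaling these were 492 and 442. Members that did not overlap between the genotypes numbered 2 upward (Ccl4 and Ccl7, leaving out Ccl22, whose place the filter on low values set), against 9.4% of all genes, and 2 downward (Ccl3 and Ccl9), against 21.7% of all genes. For Ccl7 the lowest Ndufa4 knockout library, at 310.7 TPM, was barely above the highest wild-type one, at 310.1 TPM. The median change of the members was 0.21, and 0.17 without Ccl22, against -0.08 over all genes. Both comparisons share the wild-type libraries.

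Ccl3 stood at 54.5, 43.9 and 43.6 TPM in the Ndufa4 knockout and at 62.1, 67.7 and 63.6 TPM in wild type. All Ndufa4 knockout libraries were below those of wild type, replicate 1 least so, with a difference of -0.44 ± 0.10 (limma adjusted p = 0.0284). Ccl4 stood at 70.2, 77.95 and 83.2 TPM in the Ndufa4 knockout and at 60.8, 62.0 and 61.0 TPM in wild type, a rise of 0.32 ± 0.07 without overlap (limma adjusted p = 0.0233). Ccl9 had nearly the same level in all 3 Ndufa4 knockout libraries, at 49.3, 48.8 and 48.9 TPM, against 58.9, 54.9 and 58.7 TPM in wild type. The difference was -0.23 ± 0.06 (limma adjusted p = 0.0442), a call kept in 4 of 19 alternatives, and with adjusted p of 0.19 under median-of-ratios scaling and 0.257 with the transcript length trend removed. Ccl6 stood at 34.7, 25.3 and 30.3 TPM in the Ndufa4 knockout and at 32.6, 33.7 and 37.0 TPM in wild type, and its overlap with wild type came from replicate 1 of the knockout (-0.20 ± 0.11, limma adjusted p = 0.273). The difference of Ccl6 was -0.30 without replicate 1 and -0.081 without replicate 2 of the knockout. With array weights it was -0.38 and called (limma adjusted p = 0.00544). Those weights were 0.341, 3.67 and 0.101 for Ndufa4 knockout replicates 1, 2 and 3. That call therefore rested mostly on replicate 2, in which Ccl6 was lowest.

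Ndufa4 knockout replicate 1 also held the highest values of its genotype for the Ccr2 ligands and Ccl5. Ccl2 stood at 709.7, 619 and 649 TPM in the Ndufa4 knockout, on both sides of the 643, 666 and 686 TPM of wild type, with a difference of -0.01 ± 0.05 and an interval of -0.14 to 0.11. Ccl7 stood at 411, 311 and 334 TPM in the Ndufa4 knockout and at 278, 295.5 and 310.1 TPM in wild type. Replicate 2, at 310.7 TPM, lay just above the highest wild-type library, and replicate 3 lay further above it. The difference of 0.25 ± 0.09 did not pass (limma adjusted p = 0.133) and was 0.13 without replicate 1. Ccl12 stood at 456, 362 and 347 TPM in the Ndufa4 knockout and at 328, 345.5 and 352 TPM in wild type. Without replicate 1 its difference of 0.17 ± 0.10 was 0.05. Ccl5 stood at 92.3, 61.7 and 61.0 TPM in the Ndufa4 knockout and at 67.1, 52.2 and 54.3 TPM in wild type, and its difference of 0.29 ± 0.16 was 0.09 without replicate 1. Ccl8 differed in pattern, with 82.9, 84.9 and 96.3 TPM in the Ndufa4 knockout, highest in replicate 3, and 69.2, 66.0 and 84.1 TPM in wild type, of which replicate 3 reached into the range of the knockout (0.27 ± 0.10, limma adjusted p = 0.119).

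Ccl22, a Ccr4 ligand made by dendritic cells and some macrophages, was close to the limit of the table. It stood at 1.47, 1.255 and 1.17 TPM in the Ndufa4 knockout, at 0.607, 0.463 and 0.268 TPM in Ndufa4l3-miR147 knockout cells and at 0.562, 0.605 and 0.701 TPM in wild type. It passed the filter of 1 TPM in 3 libraries only through the Ndufa4 knockout, so its direction and lack of overlap against that genotype were set by the filter. In the Ndufa4 knockout its difference from wild type was 0.50 ± 0.15 and was not called (limma adjusted p = 0.069), and in the Ndufa4l3-miR147 knockout it was -0.17 ± 0.15. Of the 10 dendritic cell markers 4 were kept. Of these only Clec9a was called in the Ndufa4 knockout against wild type, as higher (0.98 ± 0.19, limma adjusted p = 0.0166). It stood at 73.4, 53.5 and 38.7 TPM in the Ndufa4 knockout and at 25.25, 27.7 and 27.1 TPM in wild type. Clec10a ran the other way, at 3.06, 3.11 and 3.47 TPM in the Ndufa4 knockout and at 3.92, 5.51 and 6.82 TPM in wild type, and was not called (-0.58 ± 0.16, limma adjusted p = 0.0616). Xcr1 and Fscn1 overlapped between these genotypes. The list summed to 52.8 to 81.7 TPM in the Ndufa4 knockout, 36.6 to 42.6 TPM in Ndufa4l3-miR147 knockout cells and 32.7 to 40.5 TPM in wild type, and Clec9a made up most of each sum. The other 6 markers were under 1 TPM in every library, among them Flt3, Zbtb46 and Cd209a, and their part in the level of Ccl22 was not tested.

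Without Ndufa4 knockout replicate 3, the library with low long transcripts, the 3 members kept their calls. Without replicate 2 only Ccl4 did, and without replicate 1 Ccl4 and Ccl3 did. None of the 3 was called without wild-type replicate 1, 2 or 3. The split of 1 higher and 2 lower became 2 and 1 with quantile normalization or with the transcript length trend removed, when Ccl22 was called higher and Ccl9 was not called. With no filter on low values it became 2 and 0: Ccl3 and Ccl9 lost their calls (limma adjusted p of 0.0656 and 0.0523), and Ccl22 was called higher (0.0447).

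**Figure D2:**
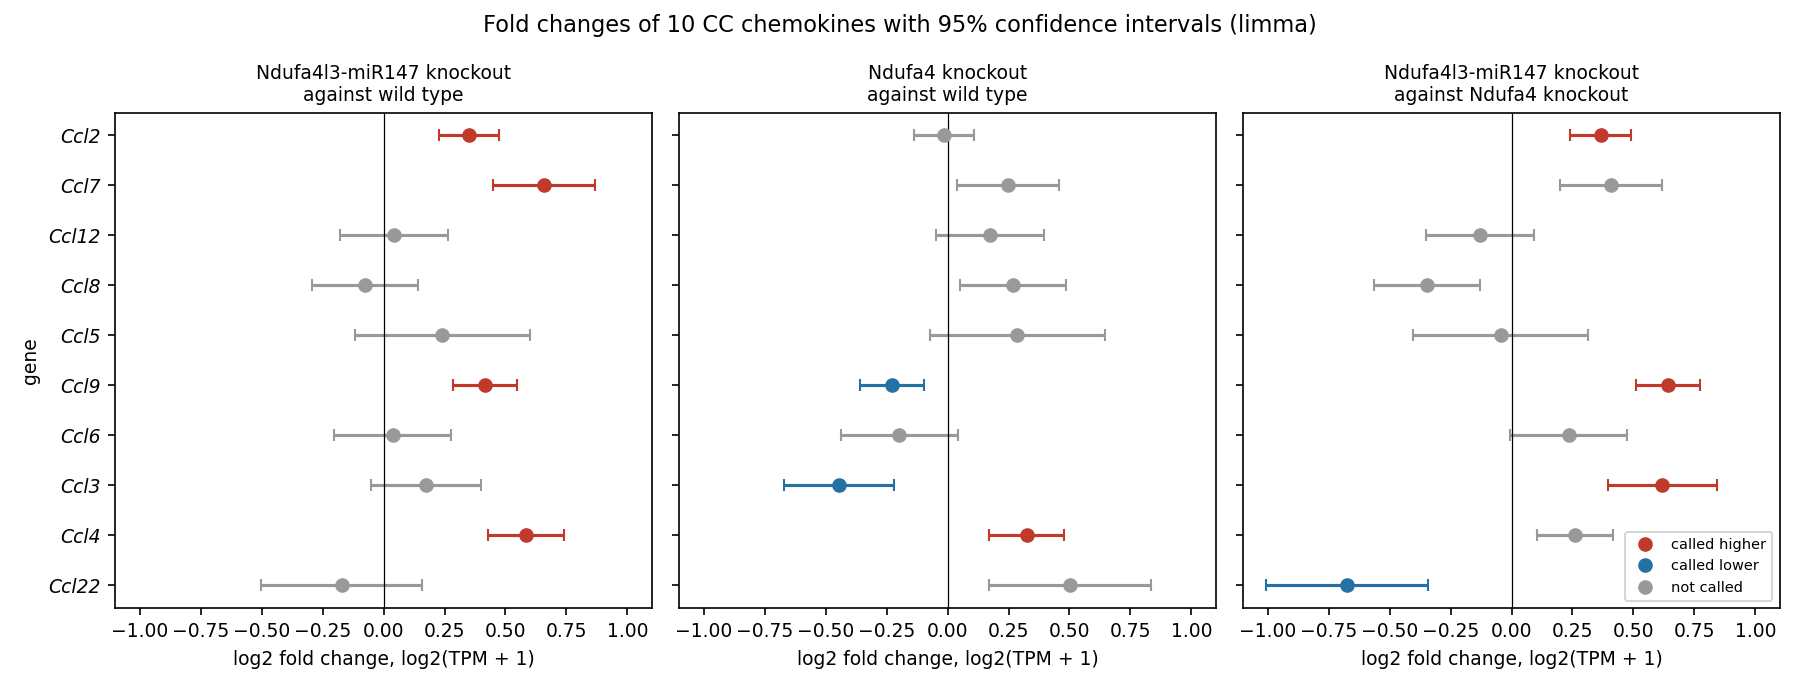
Log2 fold change (horizontal axis, log2(TPM + 1) scale) of each member in the 3 comparisons, as points with 95% confidence intervals from limma, red where called higher, blue where called lower and grey where not called. Ccl9 and Ccl3 lie left of 0 in the Ndufa4 knockout, with Ccl4 right of 0 in both knockouts against wild type.

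The third comparison set the knockouts against each other, a direct test of whether the members differ between them. Ccl2, Ccl3 and Ccl9 were higher in the Ndufa4l3-miR147 knockout than in the Ndufa4 knockout. Ccl22 also passed the threshold, as lower, but its direction here was set by the filter on low values. Across all genes 2.2% were called higher and 1.04% lower, or 245 and 116 of 11133 (3.24% in either direction); with median-of-ratios scaling these were 146 and 148. The libraries of both knockouts did not overlap for 5 members upward, against 18.3% of all genes, and, leaving out Ccl22, for 1 downward (Ccl8), against 6.98%. The median difference of the members was 0.25, and 0.26 without Ccl22, against 0.07 over all genes. This comparison shares its libraries with the other two.

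Ccl9 differed most firmly, at 73.2, 75.9 and 82.0 TPM in Ndufa4l3-miR147 knockout cells and 49.3, 48.8 and 48.9 TPM in the Ndufa4 knockout, or 0.64 ± 0.06 (limma adjusted p = 9.4e-04). It was called in all 19 alternatives, with adjusted p of at most 0.018. Ccl3 stood at 70.8, 67.3 and 81.0 TPM in Ndufa4l3-miR147 knockout cells and at 54.5, 43.9 and 43.6 TPM in the Ndufa4 knockout. It was higher by 0.62 ± 0.10 without overlap (limma adjusted p = 0.0143), and Ccl2 by 0.36 ± 0.05 (limma adjusted p = 0.0107). Both were called in 16 of 19 alternatives. With replicate 1 or 2 of the Ndufa4l3-miR147 knockout left out, Ccl2 was lost (limma adjusted p values 0.0589 and 0.0593), as was Ccl3 without replicate 1 or 3 (0.0589 and 0.0656), and both were lost in a fit of only the 6 libraries compared. The difference of Ccl22 was -0.67 ± 0.15 (limma adjusted p = 0.0445), a call lost in 12 of 18 alternatives, among them those without any 1 of the 9 libraries.

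Ccl7 was higher in the Ndufa4l3-miR147 knockout by 0.41 ± 0.09 and just missed the threshold (limma adjusted p = 0.0515). Without Ndufa4 knockout replicate 1, the library in which Ccl7 was highest of its genotype, the difference was 0.53 (limma adjusted p = 0.00404). Ccl4 showed 0.26 ± 0.07 (limma adjusted p = 0.0811), and 0.32 without Ndufa4 knockout replicate 3 (limma adjusted p = 0.0192). Ccl8, at -0.35 ± 0.10, was lower in all Ndufa4l3-miR147 knockout libraries than in those of the Ndufa4 knockout and was not called (limma adjusted p = 0.0944). Ccl6, Ccl12 and Ccl5 overlapped between the knockouts, with 95% intervals of -0.0045 to 0.47 for Ccl6, -0.35 to 0.09 for Ccl12 and -0.40 to 0.31 for Ccl5.

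**Figure D3:**
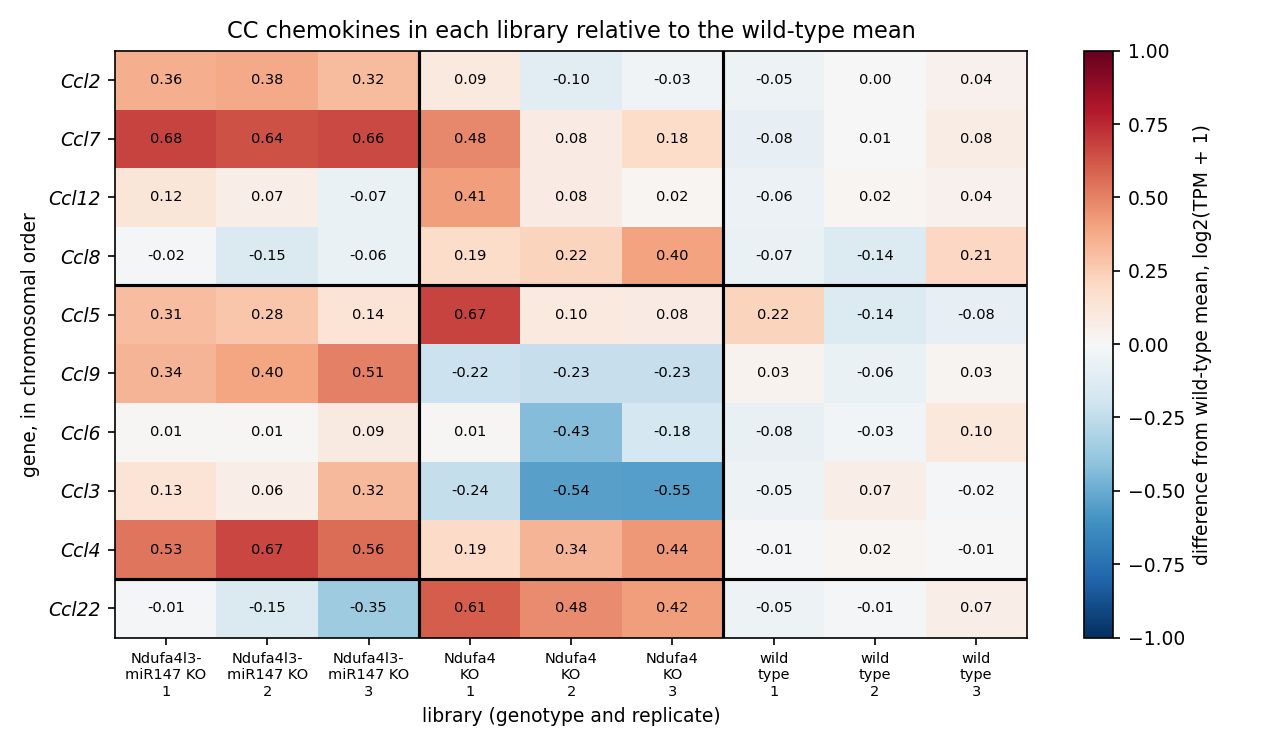
Difference of each library from the wild-type mean on the log2(TPM + 1) scale (colour and printed value), with genes in chromosomal order down the page (lines separate the first cluster, the second cluster and Ccl22) and libraries across, 3 per genotype. Ccl7, Ccl12 and Ccl5 are highest of their genotype in Ndufa4 knockout replicate 1, and Ccl9 is even across the Ndufa4 knockout at -0.22 to -0.23.

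Ratios between members within a library do not depend on how libraries are scaled, and are given as a description with no test. They can still carry the length trend of Ndufa4 knockout replicate 3, since lengths differ within pairs, as between Ccl9 (3006 bases) and Ccl6 (1440 bases). The effect of that trend on the ratios was not tested. How often ratios of other gene pairs separate the genotypes was not computed. The ratio of Ccl7 to Ccl2 was 0.552, 0.531 and 0.561 in the Ndufa4l3-miR147 knockout, 0.579, 0.502 and 0.515 in the Ndufa4 knockout and 0.431, 0.444 and 0.452 in wild type. All 6 knockout libraries were above all 3 of wild type, although Ccl2 itself was called in the Ndufa4l3-miR147 knockout and not in the Ndufa4 knockout. The ratio of Ccl4 to Ccl3 was 1.26, 1.45 and 1.12 in the Ndufa4l3-miR147 knockout, 1.29, 1.78 and 1.91 in the Ndufa4 knockout and 0.979, 0.916 and 0.959 in wild type. Here too both knockouts lay above wild type, so that Ccl4 was the more abundant of the pair in every knockout library and Ccl3 in every wild-type library.

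The ratio of Ccl12 to Ccl2 separated all 3 genotypes, with a mean of 0.415 ± 0.0208 in the Ndufa4l3-miR147 knockout, 0.587 ± 0.054 in the Ndufa4 knockout and 0.514 ± 0.00463 in wild type (SD). The ratio of Ccl9 to Ccl6 was 2.18 ± 0.0639 in the Ndufa4l3-miR147 knockout, above the 1.65 ± 0.258 of the Ndufa4 knockout and the 1.67 ± 0.118 of wild type, which overlapped. For Ccl9 to Ccl3 the ratio was 1.01 to 1.13 in the Ndufa4l3-miR147 knockout. It overlapped between the Ndufa4 knockout, at 0.904 to 1.12, and wild type, at 0.811 to 0.948.

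**Figure D4:**
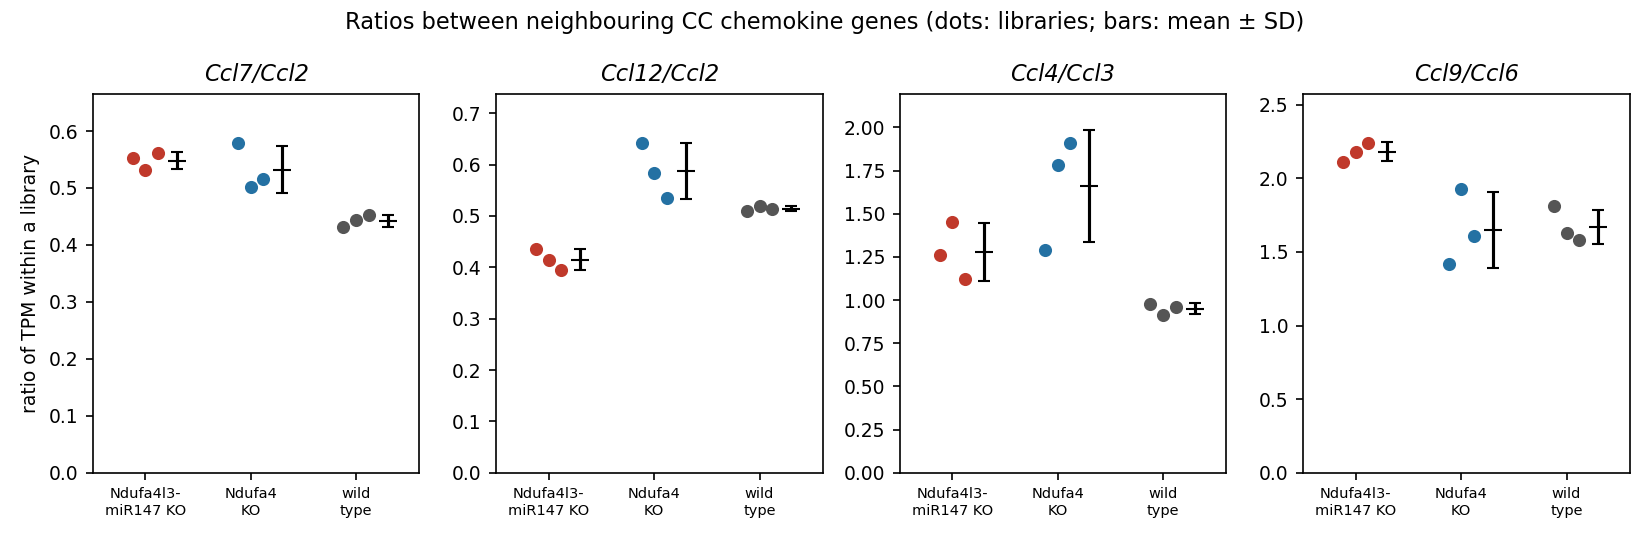
Ratio of TPM (vertical axis, from 0) between members of the same cluster in each library, as dots, with bars for mean ± SD, in the Ndufa4l3-miR147 knockout, the Ndufa4 knockout and wild type. The ratios of Ccl7 to Ccl2 and of Ccl4 to Ccl3 are higher in all 6 knockout libraries than in wild type.

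Across the 9 libraries, which share 3 genotypes, the members that varied most alike were Ccl2 and Ccl7 (Pearson r = 0.916), Ccl2 and Ccl9 (r = 0.882) and Ccl3 and Ccl9 (r = 0.851) on the log2 scale. Ccl5 and Ccl12, both highest in Ndufa4 knockout replicate 1, had r = 0.752. The genes outside the family most like each member by Pearson r over the 9 libraries were Olfml3 for Ccl2 (r = 0.97), Angptl2 for Ccl7 (0.954), Bloc1s4 for Ccl4 (0.965), Steap3 for Ccl9 (0.974), Ttc30b for Ccl3 (0.975), Rbm34 for Ccl12 (0.987), Zfp639 for Ccl5 (0.938), B4galt7 for Ccl6 (0.923), Stip1 for Ccl8 (0.922) and Icam1 for Ccl22 (0.977). These are the highest among the 11133 genes kept, and they are descriptions with no test.

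Other CC chemokines were scarce. Of 14 further genes listed, 13 were in the table and 2 were kept, Ccl25 at 3.89 ± 0.306, 5.90 ± 1.36 and 5.69 ± 1.97 TPM and Ccl27a at 2.10 ± 0.341, 2.25 ± 0.478 and 2.06 ± 0.286 TPM in Ndufa4l3-miR147 knockout cells, the Ndufa4 knockout and wild type (SD). The other 11 were under 1 TPM in every library, and Ccl1, Ccl20 and Ccl26 were listed at 0 throughout. Ccl17, a Ccr4 ligand like Ccl22, was listed at 0 in 8 of 9 libraries.

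The cells also carried transcripts of receptors for the members. Of 15 receptor genes 4 were kept and 0 called, where 0.431%, 8.59% and 3.24% of all genes were called in the 3 comparisons in the order above. Ccr1, the receptor of Ccl3, Ccl5, Ccl6 and Ccl9, stood at 52.4, 39.7 and 36.8 TPM in the Ndufa4 knockout, against 30.4, 32.0 and 32.5 TPM in wild type, again highest in replicate 1. Its difference of 0.42 ± 0.11 did not pass (limma adjusted p = 0.0572). Ccr2, the receptor of Ccl2, Ccl7 and Ccl12, stood at 8.75 ± 0.651 TPM in Ndufa4l3-miR147 knockout cells, 8.79 ± 2.6 TPM in the Ndufa4 knockout and 10.8 ± 0.703 TPM in wild type (SD).

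Of the 17 chemokines outside the CC family 6 were kept, and 0 were called in the Ndufa4l3-miR147 knockout against wild type, where 0.431% of all genes were. In the Ndufa4 knockout against wild type 8.59% of all genes were called. There Cxcl9, an interferon-induced T-cell attractant, and Cxcl16 rose by 0.82 ± 0.15 and 0.40 ± 0.05, and Pf4 fell by 0.33 ± 0.07 (limma adjusted p of 0.0156, 0.0027 and 0.0281). Cxcl9 was highest in replicate 1 of that knockout, at 240 TPM against 160 and 159 TPM in its replicates 2 and 3, as the Ccr2 ligands were. Between the knockouts, where 3.24% of all genes were called, the same genes were called. Cxcl9 and Cxcl16 were lower in the Ndufa4l3-miR147 knockout by 1.21 ± 0.15 and 0.40 ± 0.05 (limma adjusted p of 0.0052 and 0.0048). Pf4 was higher in it by 0.33 ± 0.07 (limma adjusted p = 0.046).

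Among 26 transcription factors and brakes that act on chemokine genes, all kept, 0 were called in the Ndufa4l3-miR147 knockout against wild type (0.431% of all genes). In the Ndufa4 knockout against wild type 5 rose and 0 fell, against 2.83% and 5.76% of all genes. Fos rose by 0.83 ± 0.11, Relb by 0.43 ± 0.08, Junb by 0.34 ± 0.08, Jun by 0.23 ± 0.05 and Irf5 by 0.21 ± 0.04 (limma adjusted p of 0.0037 to 0.0393). Fos, Jun and Junb form the AP-1 factor, and Relb is an NF-kB subunit. Between the knockouts 3.24% of all genes were called. There Atf3, a stress-induced repressor, was higher in the Ndufa4l3-miR147 knockout by 0.28 ± 0.05 (limma adjusted p = 0.023). Of 12 genes of chemokine mRNA decay and processing 10 were kept. In the Ndufa4 knockout against wild type Zfp36, which destabilises chemokine mRNAs, rose by 0.30 ± 0.08, and Mmp12, a macrophage elastase that cleaves chemokines, and the protease Ctsd fell by 0.53 ± 0.08 and 0.19 ± 0.05 (limma adjusted p of 0.0066 to 0.0484). None of them was called in the Ndufa4l3-miR147 knockout against wild type, where 0.431% of all genes were. In the Ndufa4 knockout against wild type 8.59% of all genes were called. Between the knockouts Mmp12 was higher in the Ndufa4l3-miR147 knockout by 0.55 ± 0.08 (limma adjusted p = 0.0098).

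The macrophage label was borne out by marker transcripts, with Csf1r at 915 to 993 TPM, Cd68 at 2211 to 2640 TPM and C1qb at 4180 to 4928 TPM across libraries. The 9 macrophage markers in the table summed to 15130 to 15370 TPM in Ndufa4l3-miR147 knockout cells, 15740 to 17290 TPM in the Ndufa4 knockout and 15410 to 15620 TPM in wild type. In the Ndufa4 knockout against wild type Lyz2 rose (0.24 ± 0.04, limma adjusted p = 0.0112). Mertk was lower there, close to the threshold (-0.51 ± 0.13, limma adjusted p = 0.0487). Its Ndufa4 knockout values were 17.4, 18.6 and 12.15 TPM, lowest in replicate 3, the library with low long transcripts. Between the knockouts Lyz2 was lower in the Ndufa4l3-miR147 knockout by 0.40 ± 0.04 (limma adjusted p = 0.0017). Neutrophil markers summed to 48.6 to 85.2 TPM in Ndufa4l3-miR147 knockout cells, 11.3 to 51.1 TPM in the Ndufa4 knockout and 12.5 to 92.9 TPM in wild type. Fibroblast markers summed to 36.6 to 45.1, 6.22 to 130 and 7.13 to 44.4 TPM in that order, and erythroid and megakaryocyte markers to 25.1 to 85.7, 12.5 to 44.3 and 10.2 to 155 TPM. None of the genes of these lists was called, where 0.431%, 8.59% and 3.24% of all genes were called in the 3 comparisons. Their spread was wide, with an SE of 1.24 for S100a9, 1.26 for Col3a1 and 0.90 for Hbb-bs. The lack of calls therefore does not show equal levels, and the part of these genes in the results was not tested. B cell markers and mast cell and basophil markers had no gene kept, at sums of 0.16 to 1.32 and 0.227 to 1.02 TPM, T and NK cell markers summed to 2.41 to 3.08 TPM and monocyte markers to 1.65 to 6.98 TPM.

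**Figure D5:**
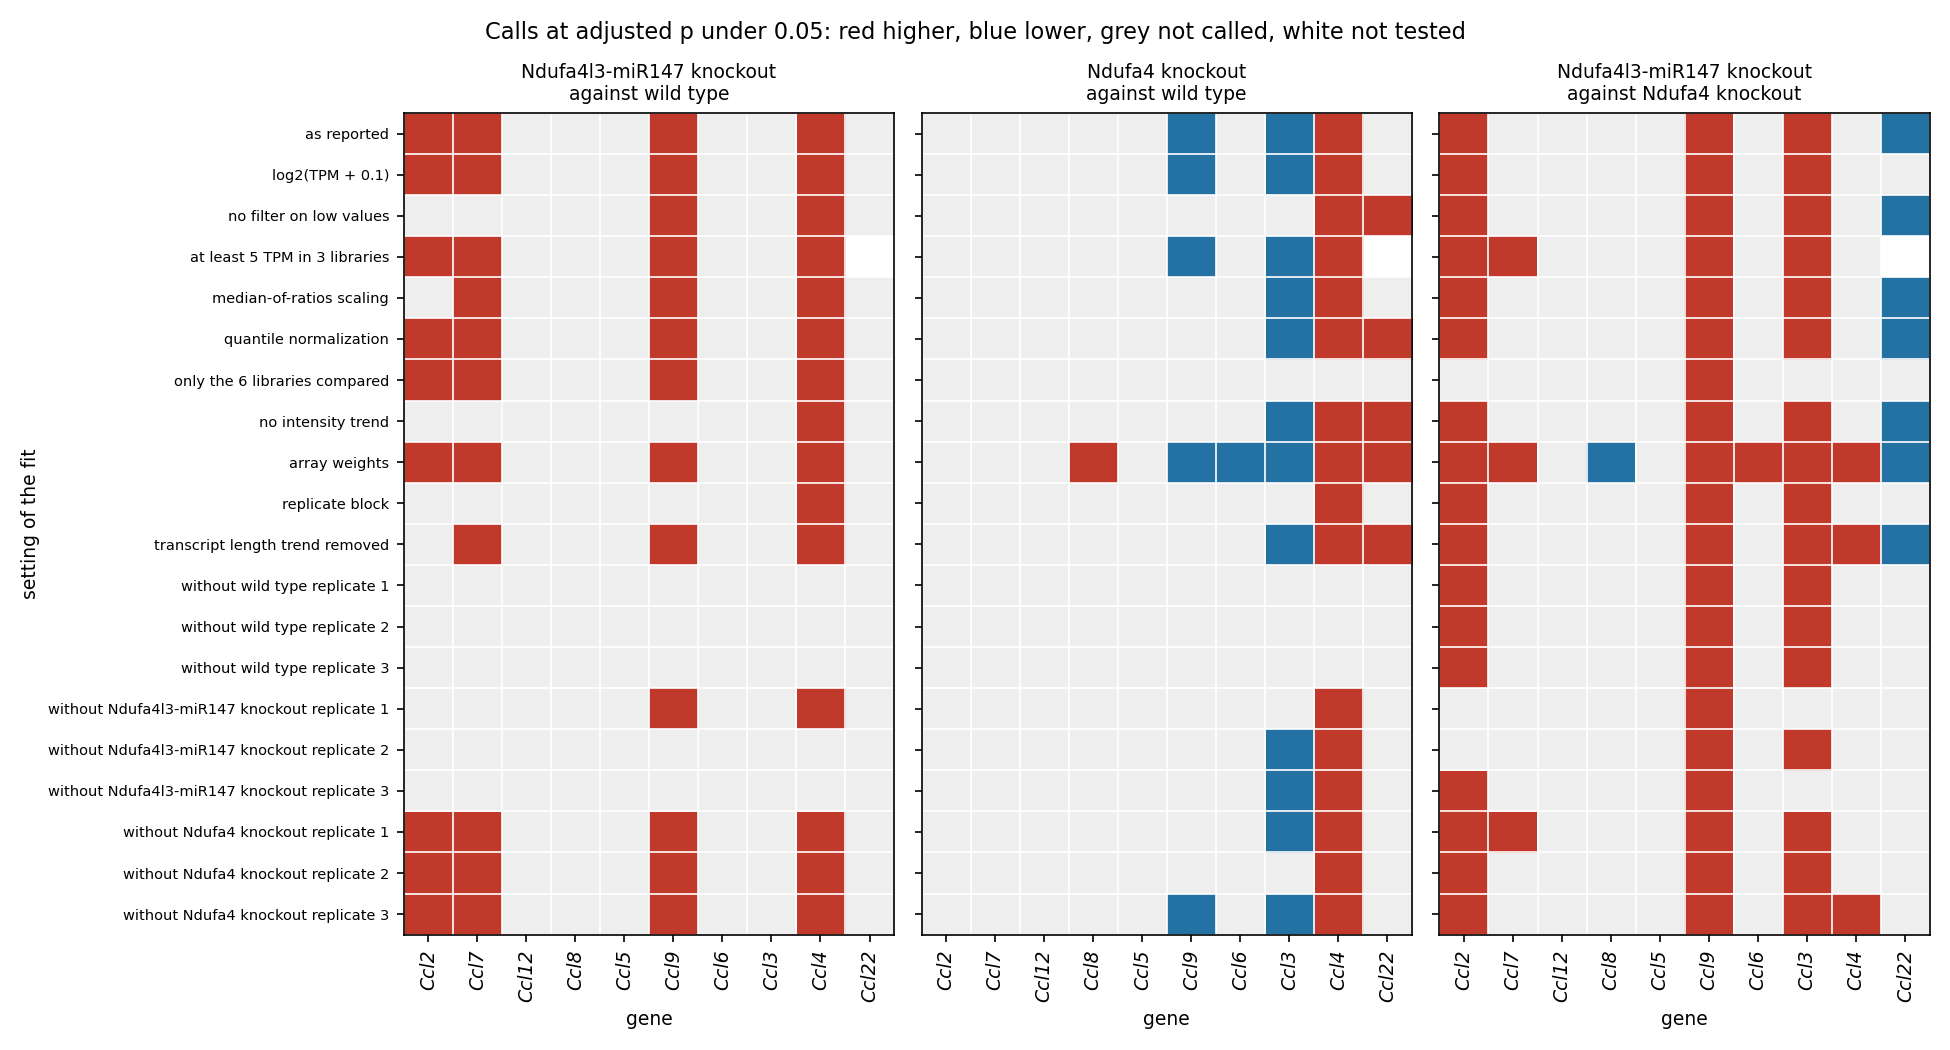
Calls of each member (columns) at a limma adjusted p under 0.05 in the fit as reported and in 19 alternatives (rows), for the 3 comparisons, with red for higher, blue for lower, grey for not called and white for not tested. Ccl9 is called between the knockouts in every row, and no member is called in either comparison against wild type without wild-type replicate 1, 2 or 3.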

How the data were processed

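Polyadenylated RNA of 9 libraries, 3 per genotype, was measured, and the values used are the TPM deposited by the authors in 1 table, with 1 column per library. The tools named per the submitters' processing notes are kallisto, DESeq2 and edgeR, without their roles, and the builds mm10 and GRCm39. The sources used here do not give the annotation, read filters or how transcripts were summed. TPM are shares of a fixed total, so gains in some genes lower the others, and 7.83% to 8.65% of each library lay outside the table. The table's 1 unnamed entry (0.00229% to 0.00277% of a library) was not used.

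TPM were transformed to log2(TPM + 1), with genes of at least 1 TPM in at least 3 libraries kept (11133), and limma 3.58.1 (R 4.3.3) estimated a mean for each genotype from all 9 libraries together, moderating variances along a trend with mean intensity. TPM are not counts, so no count model was used. On simulated data made with the real gene means and spread, it recovered 64 of 112 genes changed by 0.5 and 82 of 88 changed by 1 on the log2 scale in the first comparison, with 5 false calls among the genes left unchanged. The simulated noise was independent between genes and equal across libraries, without the length trend of Ndufa4 knockout replicate 3. These figures therefore check the fit and do not give its error rate on the real libraries. The members and lists were chosen with earlier results of these data known. All 10 members are named, with up to 4 called genes per other list and comparison, smallest adjusted p first, or else its 2 most abundant genes, and for likeness the genes with the highest Pearson r. Junb, Ccr2, Ccl1, Ccl17, Ccl20, Ccl26 and the markers that were not called fall outside this rule and were chosen after their values were seen. In all, 19 alternatives were run. Positions and transcripts are from GENCODE M21, and promoters and the microRNA from RefSeq. The values of 1 receptor gene are not reported here.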

Additional observations from a re-analysis of the deposited data

How the results depend on the processing

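The 19 alternatives changed how many CC chemokines were called more than their directions. In the order Ndufa4l3-miR147 knockout against wild type, Ndufa4 knockout against wild type and Ndufa4l3-miR147 against Ndufa4 knockout, 4, 3 and 4 members and 48, 956 and 361 of all genes were called as reported. The third count of members is 3 without Ccl22, whose direction was set by the filter on low values. The counts of members that follow include Ccl22 wherever it was called. Leaving out 1 library at a time gave 0 to 4, 0 to 3 and 1 to 4 members, and 13 to 198, 266 to 1586 and 82 to 740 genes. With no filter on low values 2 members were called in the Ndufa4l3-miR147 knockout against wild type, and 1, with 30 genes, with no intensity trend. A fit of only the 6 libraries compared called 306, 238 and 64 genes, with 0 members in the Ndufa4 knockout against wild type and 1 when the knockouts were compared. Array weights set Ndufa4 knockout replicates 1, 2 and 3 to 0.341, 3.67 and 0.101, so that genotype rested mostly on replicate 2. With them 538, 3045 and 1726 genes were called. The members called were 6 for the Ndufa4 knockout against wild type and 8 for the pair of knockouts. The replicate block called 1, 1 and 3 members and 24, 661 and 162 genes. Same-numbered libraries had correlations of -0.138 to 0.179 in their deviations from the genotype means, and 0 of 9 correlated best with their own number in both other genotypes, so the numbers were not taken as pairs. In the Ndufa4 knockout against wild type the 315 higher and 641 lower genes became 499 and 458 with quantile normalization and 583 and 538 with the length trend removed; between the knockouts, 245 and 116 became 193 and 187, and 230 and 223. Signs turned only for members that were not called. Ccl2 in the Ndufa4 knockout against wild type was 0.060 under median-of-ratios scaling and -0.069 to 0.030 with 1 library left out. Ccl5 between the knockouts was 0.089 with array weights and -0.15 to 0.15 with 1 library left out. With 1 library left out, the difference between the Ndufa4l3-miR147 knockout and wild type for Ccl6 was -0.00075 to 0.089 and for Ccl8 -0.15 to 0.027. The cause of these changes was not tested. Depth is unknown, so the counting error behind scarce transcripts such as Ccl22 could not be given.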
